A study of Mus musculus with 24 samples.

Results

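The segment of mouse chromosome 6 from 120 to 130 Mb (GRCm38) was described through 70 genes whose RNA was counted on both parental alleles in embryonic stem cells. A gene was a member when its GENCODE M21 start lay between 120000001 and 130000000 and its mean over 24 libraries was at least 10 counts in the 129S1 column and at least 10 in the CAST column. The table held 347 genes with a start in the segment. Of these, 123 had no count in any library, 154 had counts under the minimum, and 70 were members, out of 10795 genes at the minimum in the whole table. Among the members 63 were protein-coding. The segment was selected on the total and allelic counts of libraries of the recombination named d3 against all others, in which it differed. The values of d3 against the other libraries are therefore given as a description, without a test.

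The cells were the F121/9 line, female embryonic stem cells from a cross of CAST/EiJ and S129/Sv mice, so the line carries a 129 and a CAST genome. All lines were grown without serum in 2i+LIF, that is, with leukemia inhibitory factor and with inhibitors of MEK (PD0325901) and of GSK-3β (CHIR99021). The labels name 5 recombinations (d3, d6, i7, i10 and i12). Each has a parental line with the genotype "control". Recombined lines are d3 clone 12, d3 clone 21, d6 clone 16, i7 clone 7, i7 clone 12, i10 clone 18 and i12 clone 10, each with the genotype "recombined". Every line was sequenced as 2 biological replicates of poly(A) RNA. The d3 set is thus 6 libraries of 3 related lines, a parental line and 2 of its clones, and the other 18 libraries come from 9 lines. Each recombined line is 1 clone, and the p-values below measure only the spread between the 2 libraries of each line.

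The segment is best known for a small cluster of germline and stem cell genes. Nanog, a homeodomain transcription factor that holds embryonic stem cells in self-renewal, lies beside Dppa3, a maternal and germ cell factor that protects methylated DNA, Gdf3, a ligand of the TGF-beta superfamily, and Slc2a3, a high-affinity glucose transporter. The Nanog promoter carries a composite element bound by Oct4 and Sox2. Around the cluster lie housekeeping genes, among them Gapdh and Tpi1 of glycolysis and Chd4, the remodelling ATPase of the NuRD complex.

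Upstream sequence is shown for Nanog and for Apobec1, a cytidine deaminase that edits RNA. The d3 libraries parted from the others in Nanog and not in Apobec1, and Gdf3 and Dppa3 start between these genes. Each sequence is 250 bases, 5′ to 3′ on the gene's own strand, from the RefSeq promoter table for GRCm38. They are reference sequence and show neither parental allele. Nanog lies at chr6:122707239-122707488 on the plus strand, and Apobec1 at chr6:122602445-122602694 on the minus strand. Capitals mark the letters of the octamer and Sox pair, which the Apobec1 sequence lacks. Any part of these letters in the d3 values was not tested.
Nanog: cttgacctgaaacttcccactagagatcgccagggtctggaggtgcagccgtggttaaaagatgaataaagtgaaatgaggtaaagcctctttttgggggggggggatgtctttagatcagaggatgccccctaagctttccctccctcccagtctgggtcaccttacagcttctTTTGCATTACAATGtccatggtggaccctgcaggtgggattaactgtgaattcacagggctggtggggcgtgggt
Apobec1: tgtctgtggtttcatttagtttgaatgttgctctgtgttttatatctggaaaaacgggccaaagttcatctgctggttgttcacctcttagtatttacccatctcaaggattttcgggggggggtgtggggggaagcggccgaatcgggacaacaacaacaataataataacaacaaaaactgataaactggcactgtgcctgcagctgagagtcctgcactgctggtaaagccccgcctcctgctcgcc
The capitals in the Nanog sequence run from base -75 to base -62 before the start. The pair, searched on both strands as TTTGCAT, then N for any base, then ACAATG, was found in 2 of 32851 promoter windows of 250 bases (0.006088%), and both windows belong to Nanog. The octamer letters ATGCAAA, searched on both strands and overlapping the pair, were found in 1355 windows (4.125%). The table matched 50 of the 70 members, and Nanog was the only matched member with either motif. The letters TATAAA, on both strands, were found in 4063 windows (12.37%) and in 6 matched members, Apobec1 among them. Gdf3, Dppa3 and Slc2a3 were not among the matched members.

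Depth and identity were checked first. The counts of both columns summed to 10383315 to 15581094 per library in d3 (median 11948397) and to 3286819 to 13853975 in the others. Depth therefore moved with the d3 set, and 5 of the other libraries were as deep as the shallowest d3 library and had member 129S1 shares of 52.8% to 54.4%, against 64.1% to 66.1% in d3. The d3 clone 21 libraries stood apart on chromosome 14, with a median log2 change against the d3 parental line of -5.58 in 129S1 counts, 0.98 in CAST counts and 0.03 in total counts. Without them the median member ratio difference of d3 from the others was 0.84 and 32 members had parted shares. Leaving out libraries cannot undo a parting, so this count is no check on the pattern. The share over all genes for these libraries is not given here. Outside the mitochondrial genome 129S1 held 47.9% to 49.1% of the counts in both sets. Mitochondrial counts made up 3.16% to 8.21% of the total in d3 (median 7.10%) and 2.85% to 8.61% in the others (median 4.25%). All 7 embryonic stem cell markers reached the count minimum, with a summed level of 7287 to 7885 CPM (counts scaled to library size) in d3 and 5934 to 8279 in the others. This sum includes Nanog, itself a member, and the other 6 markers summed to 5496 to 5979 CPM in d3 (median 5615) and 4950 to 7170 in the others (median 5775). Of these, Tfcp2l1 (median 2117 CPM in d3 and 2587 in the others) and Klf4 (430 and 508) had lower medians in d3. So did Esrrb (546 and 563) and Sox2 (190 and 196), while Zfp42 (1637 and 1338) and Pou5f1 (742 and 702) had higher ones. The summed levels of 7 primitive endoderm markers (2 at the minimum) were 4.34 to 12.5 CPM in d3 and 3.35 to 12.1 in the others. Those of 5 epiblast-like and primitive streak markers (1 at the minimum) were 25.4 to 51.4 CPM (median 38.1) and 5.13 to 45.5 (median 13.2). Nearly all of each sum was the gene T (medians 35.1 and 9.84). The summed levels of 6 fibroblast markers (1 at the minimum) were 2.45 to 3.86 CPM (median 3.36) and 0.572 to 2.62 (median 1.39). Dcn was at 0 in every library, and Col1a1 was at 1.72 to 3.77 CPM in d3 and 0.191 to 1.68 in the others, without overlap. The trophoblast list (6 markers, 3 at the minimum) summed to 50.2 to 102 CPM and 58.7 to 153. Most of this was Tfap2c, with a lower median in d3 (59.2 and 83.0). Cdx2 (4.87 and 0.273) and Eomes (6.61 and 3.22) had higher medians in d3, and Gata3, Elf5 and Krt7 reached at most 0.942 CPM. The neural list (4 markers, 3 at the minimum) summed to 69.9 to 129 and 64.7 to 141. The part of depth and of these cell types in the segment's values was not tested.

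In d3 libraries the segment gave more 129S1 RNA and about the same CAST RNA as in the others. Summed over the 70 members, 129S1 counts held 64.1% to 66.1% in the 6 d3 libraries (median 64.4%) and 48.8% to 54.4% in the other 18 (median 53.1%), so the sets did not overlap. The summed 129S1 level was 9222 ± 820 CPM (SD, n = 6) in d3 and 5302 ± 420 CPM (SD, n = 18) in the others, 1.74 times as high. The summed CAST level was 5031 ± 278 CPM and 4696 ± 359 CPM, 1.07 times as high. Both alleles together reached 14253 and 9999 CPM, a ratio of 1.43. In bulk libraries, more RNA per cell and a larger share of cells with the RNA cannot be told apart.

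**Figure D1:**
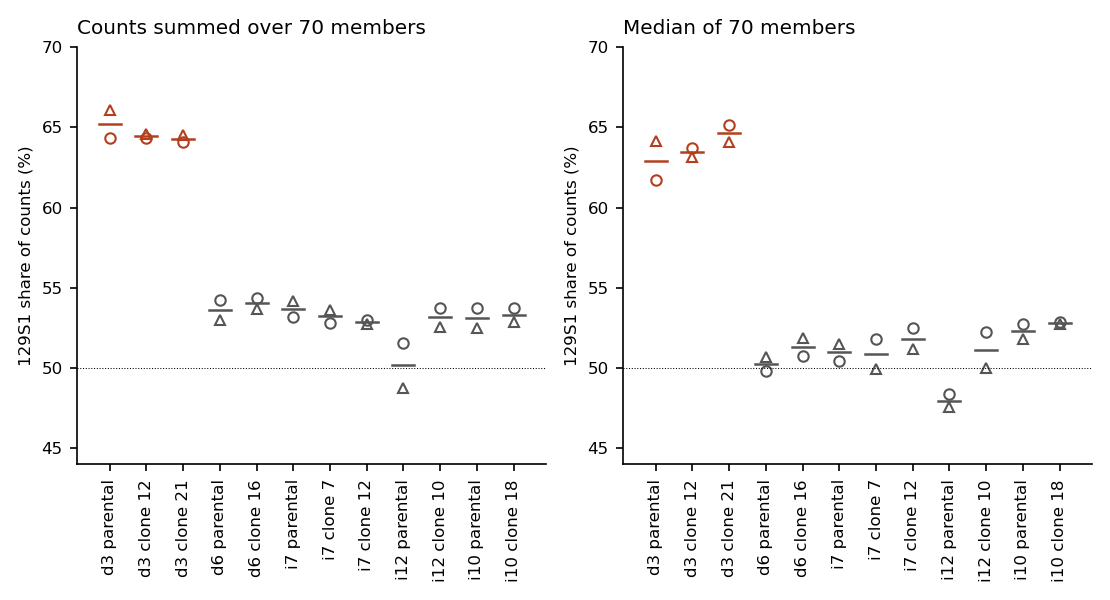
129S1 share of counts (%) in each of the 24 libraries, for counts summed over the 70 members (left) and as the median of the members' shares (right). Circles are replicate 1, triangles replicate 2, lines the mean of each line, red the d3 lines. The d3 libraries sit at 64.1% to 66.1% on the left and the others at 48.8% to 54.4%, with the i12 parental line lowest.

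Member by member, the median difference of d3 minus the others was 0.79 in log2 129S1 CPM, 0.00 in log2 CAST CPM, 0.43 in log2 total CPM and 0.84 in the log2 ratio of 129S1 to CAST. Over all 10795 genes the same medians were -0.02, 0.00, 0.00 and 0.00. The ratio lay above 0 in 64 members and below 0 in 6. Per library, the member median of the ratio, taken relative to the mean of the other libraries, was 0.70 to 0.85 in d3 and -0.23 to 0.09 in the others. That of CAST counts was -0.07 to 0.14 in d3 and -0.11 to 0.20 in the others, which overlap fully.

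The 129S1 share of all 6 d3 libraries lay above that of all 18 others in 30 of 70 members, where 0.547% of all genes did so. 129S1 counts did so in 31 members (0.982% of all genes), total counts in 19 (1.03%) and CAST counts in 2 (0.686%). No member had all d3 libraries below the others in total counts (1.36% of all genes), 129S1 counts (1.12%), CAST counts (1.14%) or 129S1 share (0.195%). Since the segment was picked for this contrast, nothing is read from these counts beyond the description.

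**Figure D2:**
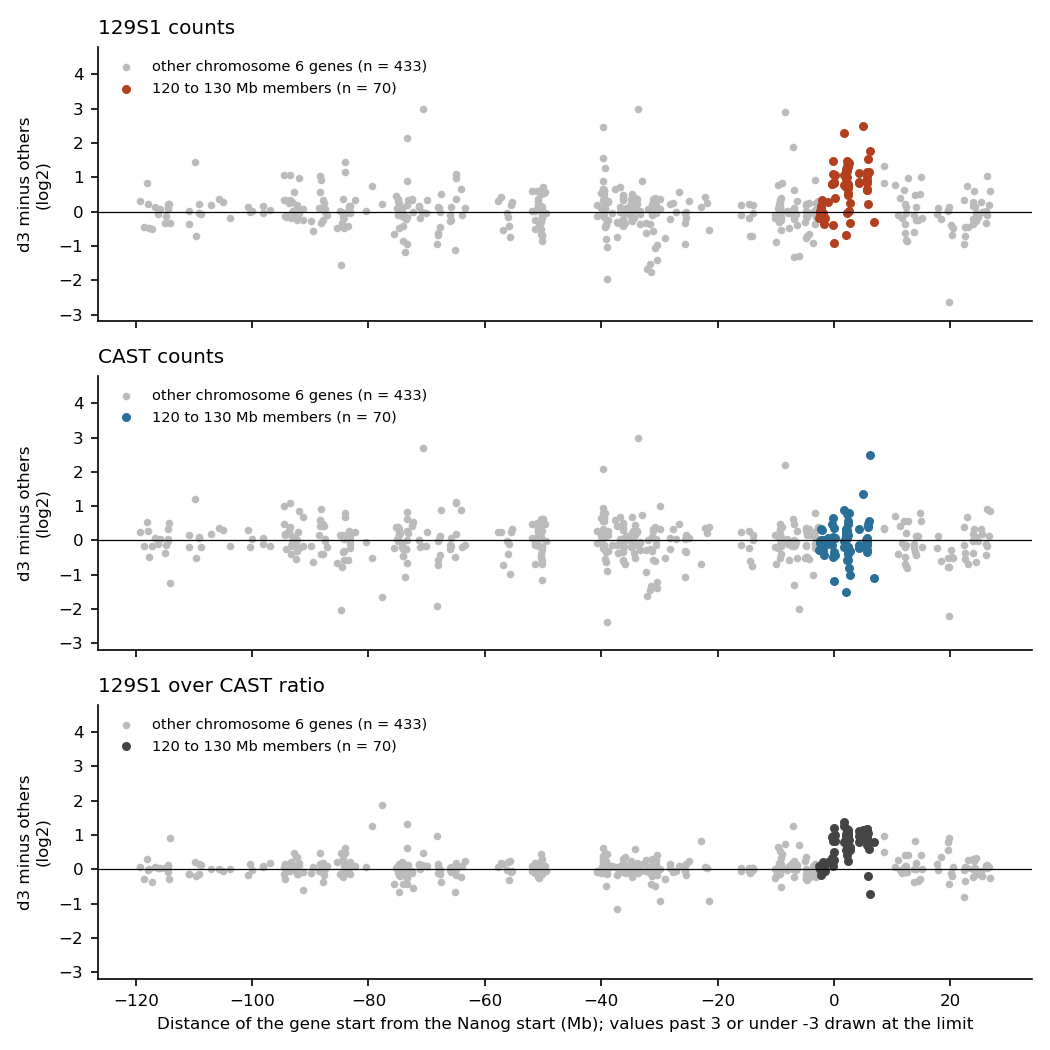
Log2 difference of d3 minus the other libraries for each chromosome 6 gene at the count minimum, against the distance of its start from the Nanog start (Mb): 129S1 counts (top), CAST counts (middle) and their ratio (bottom). Coloured points are the 70 members and grey points 433 other genes. The members' medians are 0.79, 0.00 and 0.84, and most members to the right of Nanog lie above 0 in the upper and lower panels.

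The difference did not span the whole segment. The 12 members that start before M6pr, from B4galnt3 to A2m, had a median ratio difference of 0.03 (range -0.17 to 0.21), and none of them parted the libraries in any measure. The 58 members from M6pr onward had a median of 0.87, with 56 above 0, and all 30 members with parted shares were among them. This division was chosen after the values were seen. Before it the summed 129S1 share was 49.4% to 50.2% in d3 and 43.0% to 50.2% in the others. After it the share was 64.9% to 66.9% in d3 and 49.3% to 54.7% in the others.

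By steps of 1 Mb the median ratio difference was 0.03 from 120 to 121 Mb (10 members), 0.08 from 121 to 122 Mb (2 members) and 0.84 from 122 to 123 Mb (10 members). It stayed at 0.87 from 124 to 125 Mb (17 members), 0.88 from 125 to 126 Mb (14 members) and 0.90 from 128 to 129 Mb (12 members). The steps from 126 to 127 Mb and from 127 to 128 Mb held 2 members each, with 1.04 and 0.98. CAST medians in the same steps lay on both sides of 0, from -0.21 to 0.19 in the steps with at least 10 members.

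The ends of the segment were read on their nearest genes. Before it, Rad52, a recombination protein, and Wnk1, a kinase of ion transport, had ratio differences of -0.08 and 0.12. The first members, B4galnt3 and Ccdc77, had 0.09 and 0.01. The last members were Gm44078, at -0.71, and Gabarapl1, an autophagy protein of the ATG8 family, at 0.78. Beyond the end, Magohb, of the exon junction complex, and Ybx3, a cold-shock-domain protein, had 0.51 and 0.97. The 129S1 share of Magohb was 80.6% to 85.7% in d3 and 67.2% to 88.4% in the others, which overlap. That of Ybx3 was 77.3% to 79.6% in d3 and 60.1% to 72.3% in the others, which do not overlap. Parted shares past 130 Mb thus rest on Ybx3 among these genes. The next genes, Smim10l1 (start 133104909) and Gm6375, had 0.06 and 0.28. The members nearest above the count minimum were C1rl (1.26) and Gpr162 (0.55), and the genes just under it were Gm4482 (-0.27) and Vwf (0.25). The minimum was a mean of raw counts over all libraries, and the d3 libraries had the higher median depth. A gene higher in d3 could thus reach it more easily. C1rl, with a mean of 10.04 counts on 129S1, differed there by 1.06 in log2 CPM, and its shares overlapped. Gpr162 differed by -0.03 on 129S1. The values of these genes are therefore no check on the minimum.

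In windows of 10 Mb over the genome, the segment's median ratio difference ranked 1 of 264 windows from the highest, and the next was 0.31, on chromosome 1 from 20 Mb. By size, the 12 windows of chromosome 14 were larger, at -1.27 to -2.45, where the d3 mean includes the d3 clone 21 libraries. The other 14 windows of chromosome 6 lay between 0.00 and 0.08. In CAST counts the segment ranked 133 of 264. In total counts it ranked 3 (0.43), behind the mitochondrial window (0.50) and chromosome 15 from 20 Mb (0.48).

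**Figure D3:**
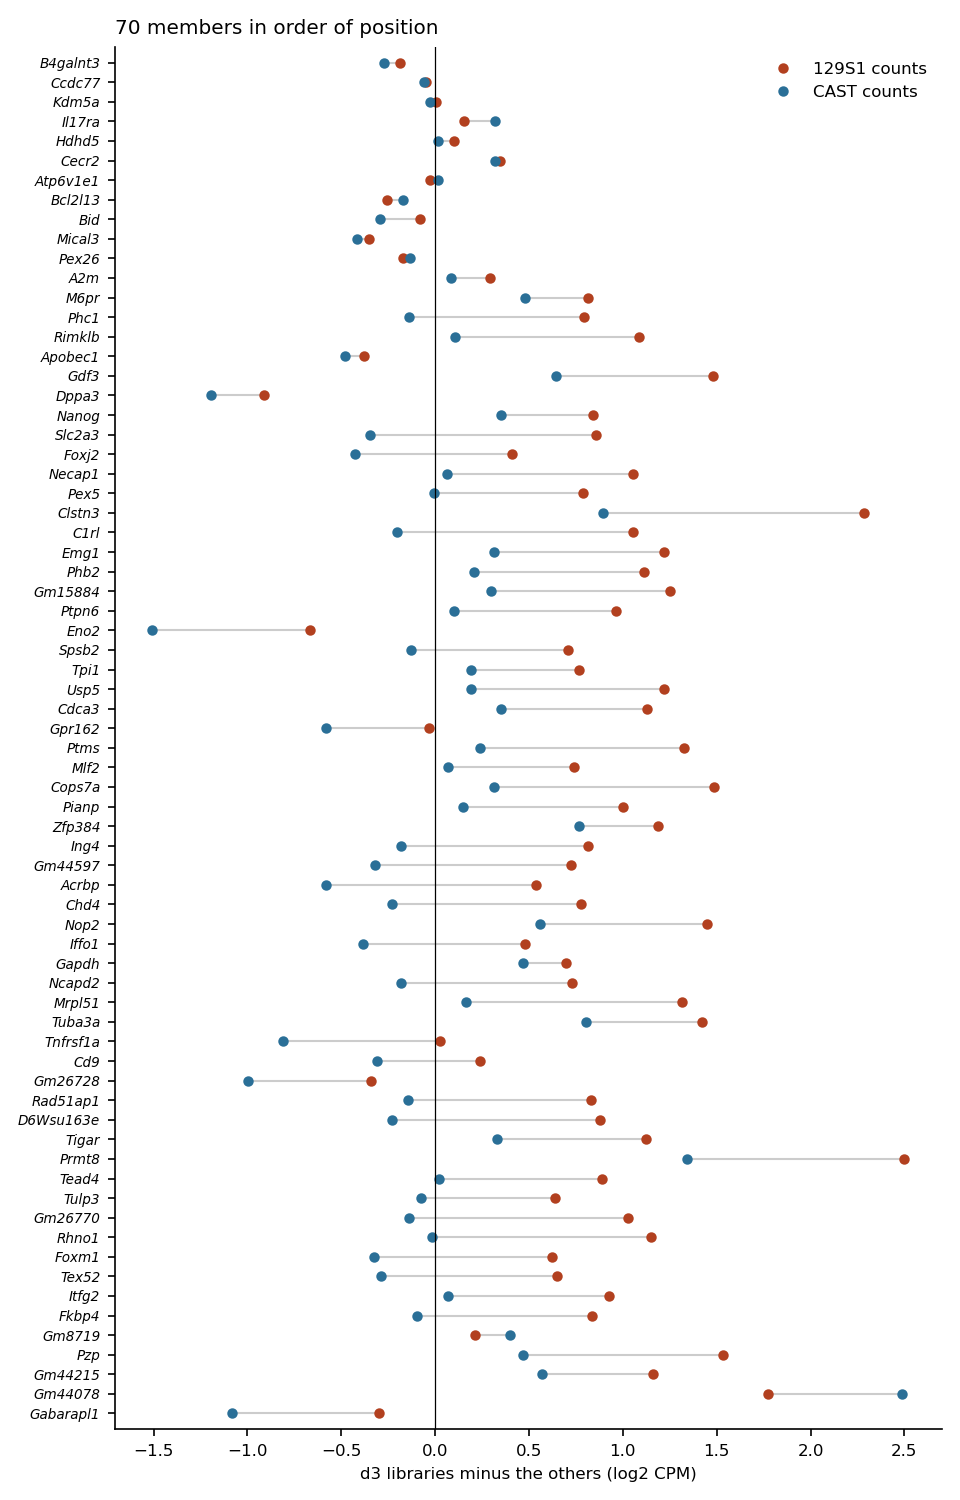
Log2 CPM difference of d3 minus the other libraries for each of the 70 members in order of position, red for 129S1 counts and blue for CAST counts. From B4galnt3 to A2m the points lie together, and from M6pr onward 129S1 lies to the right of CAST in 56 of 58 members.

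Nanog (ENSMUSG00000012396.12, chr6:122707489-122714633) was the only stem cell gene of the segment whose total counts parted the libraries. Its total level was 1773 to 2214 CPM in d3 (median 1829) and 984 to 1355 CPM in the others (median 1105). On 129S1 it was 1335 to 1879 CPM in d3 and 679 to 935 in the others, and on CAST 335 to 462 and 291 to 420. The d3 libraries lay above all others in total and 129S1 counts and overlapped them in CAST counts. The differences were 0.72 in log2 total CPM, 0.84 on 129S1 and 0.35 on CAST. Nanog counts leaned to 129S1 in all lines, with a share of 68.7% to 72.8% in the others and 75.1% to 84.9% in d3. The highest share was that of d3 parental replicate 2 (84.9%, 95% Wilson interval 84.4% to 85.4%), and the next d3 library had 76.2%. Processed copies of Nanog elsewhere in the genome could share its reads, so its split is uncertain.

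Gdf3 (ENSMUSG00000030117.5, chr6:122605403-122610087) was at 166 to 273 CPM in d3 (median 251) and 67.8 to 167 CPM in the others (median 116). The sets touched only at their ends, with d3 clone 12 replicate 2 lowest in d3. Its 129S1 share was 54.4% to 57.0% in d3 and 35.0% to 45.9% in the others, so the favoured allele was CAST in the others and 129S1 in d3. The differences were 1.48 on 129S1 and 0.65 on CAST, on the log2 CPM scale.

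Slc2a3 (ENSMUSG00000003153.10, chr6:122727809-122801640) showed the same switch of the favoured allele with little difference in total. Its 129S1 share was 59.8% to 64.6% in d3 and 37.7% to 45.9% in the others, without overlap. Its total level was 791 to 1489 CPM in d3 (median 1012) and 647 to 1204 in the others (median 865), with wide overlap. The difference was 0.86 on 129S1 and -0.35 on CAST. In all 3 d3 lines replicate 2 had the higher Slc2a3 total.

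Dppa3 (ENSMUSG00000046323.8, chr6:122626410-122630272) lay in the middle of the cluster and was the exception to it. Its total level was 57.6 to 293 CPM in d3 (median 116) and 90.0 to 577 CPM in the others (median 249), and the difference was -1.09. The lowest values were those of replicate 1 of the 3 d3 lines, at 57.6, 58.5 and 62.8 CPM, and the i12 and i10 lines were highest. Its 129S1 share was 36.6% to 44.8% in d3 and 31.6% to 39.2% in the others, which overlap, and the ratio difference was 0.28.

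The other members of this list also differed from each other. Phc1, a Polycomb subunit, had a 129S1 share of 63.0% to 65.2% in d3 and 43.7% to 54.2% in the others, with differences of 0.79 on 129S1 and -0.14 on CAST. Apobec1 was low in all lines, at 8.26 to 19.7 CPM in d3 and 5.12 to 41.0 CPM in the others, and its shares overlapped fully (57.0% to 72.7% and 46.4% to 76.8%). Of the 5 members on the list, 3 had parted shares (Nanog, Gdf3 and Phc1).

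**Figure D4:**
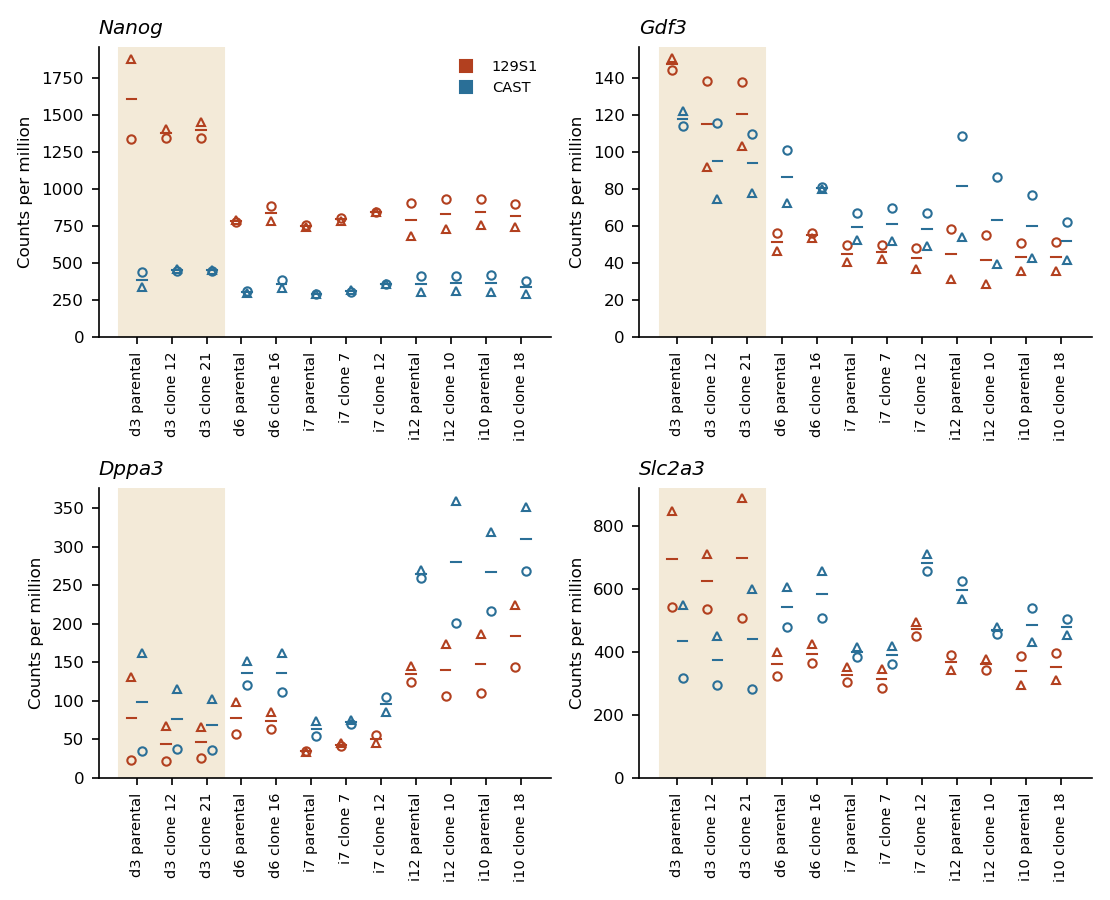
CPM of Nanog, Gdf3, Dppa3 and Slc2a3 on the 129S1 allele (red) and the CAST allele (blue) in each library. Circles are replicate 1, triangles replicate 2, short lines the mean of each line, and the shaded columns the d3 lines. In Gdf3 and Slc2a3 red lies above blue only in d3, in Nanog red lies above blue in all lines, and Dppa3 has its lowest values in d3 replicate 1.

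Among the 5 members for glucose uptake and glycolysis, Tigar, a phosphatase that dampens glycolysis, had a 129S1 share of 57.0% to 64.4% in d3 and 44.6% to 52.9% in the others. Tpi1, triosephosphate isomerase, was read almost wholly from 129S1 (89.0% to 94.8% and 87.1% to 90.9%), with a ratio difference of 0.57. Gapdh was read mostly from CAST, with a 129S1 share of 8.17% to 17.4% in d3 and 8.48% to 13.7% in the others. Its total level was 1330 to 1652 CPM in d3 and 790 to 1299 in the others, without overlap. Gapdh and Tpi1 have processed copies elsewhere in the genome that could share their reads, so their allelic splits are uncertain. Eno2, the neuronal enolase, was lower in d3 by the largest amount of any member, at 1.07 to 10.7 CPM against 1.11 to 20.8 CPM (difference -1.17), and the sets overlapped.

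The chromatin and transcription list had 9 members, with a median ratio difference of 0.84 and parted shares in 4. Chd4 had a 129S1 share of 75.5% to 80.2% in d3 and 62.5% to 68.4% in the others. Foxm1, a transcription factor of the G2/M phase, had 67.9% to 71.4% and 50.7% to 58.9%. Tead4, a DNA-binding partner of YAP, had 58.5% to 64.8% and 40.9% to 53.3%, and Ing4, a reader of methylated histone H3, had 64.8% to 72.9% and 44.2% to 61.7%. Kdm5a, a histone H3 lysine demethylase, starts before M6pr and had 47.2% to 53.8% and 42.7% to 53.6%. Mlf2 and Tulp3 were read over 90% from 129S1 in all libraries, with total levels above all others in d3 and ratio differences of 0.67 and 0.71. Zfp384, a zinc finger factor, was read mostly from CAST and was 1 of the 2 members whose d3 libraries lay above the others in CAST counts, Gapdh being the other. The remaining member, the forkhead factor Foxj2, had 38.5% to 43.7% and 21.2% to 39.1%.

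All 3 members for cell cycle and DNA repair parted the libraries. Ncapd2, a condensin subunit, had a 129S1 share of 68.3% to 71.1% in d3 and 51.8% to 60.4% in the others. Rad51ap1, a DNA repair protein, had 66.5% to 72.5% and 47.1% to 63.2%. Rhno1, which acts with the 9-1-1 checkpoint clamp, had 69.2% to 73.1% and 44.8% to 59.9%, and its ratio difference of 1.17 was among the 5 highest. Ccnd2 and Parp11 were under the count minimum.

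The 6 members for RNA and protein handling had the highest list medians, 1.22 on 129S1 and 0.79 in total. Cops7a, a COP9 signalosome subunit, was at 110 to 153 CPM in d3 and 42.5 to 98.8 CPM in the others, with a ratio difference of 1.18. Nop2 and Emg1, RNA methyltransferases of ribosome assembly, had 129S1 shares of 61.8% to 66.9% and 61.9% to 65.5% in d3, against 44.6% to 57.8% and 44.2% to 54.6%. Usp5, a deubiquitinase, and Fkbp4, a co-chaperone of HSP90, parted the libraries by share as well. Spsb2 was low, at 2.48 to 7.71 CPM in d3, and its shares overlapped.

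Of 9 members for organelles and trafficking, 5 had parted shares. Phb2, a mitochondrial prohibitin, was at 620 to 916 CPM in d3 and 334 to 498 CPM in the others, with 129S1 shares of 69.6% to 72.2% and 49.8% to 59.5%. Mrpl51, a mitochondrial ribosomal protein, had 80.6% to 85.3% and 55.9% to 76.1%. Necap1, of clathrin-coated vesicles, had 42.9% to 46.2% and 24.7% to 31.7%, so its favoured allele remained CAST. Pex5, the receptor for peroxisomal import, and Gabarapl1 were the other 2, and the total of Gabarapl1 differed by -0.63 on the log2 scale. M6pr, the cation-dependent mannose 6-phosphate receptor, had overlapping shares (78.1% to 85.3% and 73.9% to 80.5%) but a total of 255 to 315 CPM against 133 to 198 CPM. Mical3, Pex26 and Atp6v1e1 start before M6pr and had ratio differences of 0.06, -0.04 and -0.04.

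The 4 members for cell death and cytokine receptors had a median ratio difference of 0.06. Bid, Bcl2l13 and Il17ra lie before M6pr and had 0.21, -0.09 and -0.17. Tnfrsf1a, a TNF receptor, lies after it and had a 129S1 share of 61.2% to 69.7% in d3 and 41.0% to 58.1% in the others. Its 129S1 level differed by 0.03 and its CAST level by -0.81, so here the share parted with lower CAST counts.

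The largest differences in total counts were those of members expressed at low levels. Prmt8, an arginine methyltransferase, was at 8.42 to 13.0 CPM in d3 and 0.394 to 7.72 CPM in the others (difference 2.22). Clstn3, a synaptic calsyntenin, was at 12.0 to 23.1 CPM against 3.14 to 9.61 CPM (1.70). Its ratio difference of 1.39 was the highest of the 70. Tuba3a, an alpha-tubulin (1.26), and Pzp, a protease inhibitor of the alpha-2-macroglobulin family (1.13), also lay above all others in d3. Gm44078, an unclassified transcript, differed by 2.08 with overlap, and its ratio (-0.71) was the lowest. At the other end Gm26728, a noncoding transcript over Cd9, differed by -0.68. Gm8719, a processed pseudogene, had a ratio difference of -0.19, and all its shares lay between 72.8% and 91.2%.

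Starting balance varied among members. In the other libraries the members' median 129S1 share ran from 11.7% to 95.3% (median 51.6%), with 45 members between 40% and 60%, 3 above 80% and 2 under 20%. Another gene was annotated across 38 members on the opposite strand and across 16 on the same strand, such as Gm15884 over Phb2 and Gm44597 over Ing4. Whether counting used the strand is not given in the sources used here, so such pairs are uncertain.

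Each clone was then compared with its own parental line, a contrast that the choice of the segment did not use, to ask whether members changed on recombination. By the quasi-likelihood test of edgeR, adjusted by Benjamini-Hochberg over all genes, 0 of 70 members were called at 0.05 in any of the 8 comparisons, in total counts or in the allelic ratio. In total counts 0.0123% of all genes were called in d3 clone 12, 0.0554% in d3 clone 21, 0.0492% between these clones, 0.0123% in d6 clone 16 and 0.0246% in i7 clone 12, and 0% in i7 clone 7, i12 clone 10 and i10 clone 18. In the ratio the shares were 0.0463%, 3.41%, 3.26%, 0.0463% and 2.33% in the same order, with 0.00926% in i7 clone 7 and i12 clone 10 and 0% in i10 clone 18. DESeq2 called 0 members in total counts as well. With the replicate number as a block, edgeR called 8 members in total counts of i7 clone 12, where 6.27% of all genes were called, and none in the other comparisons. Slc2a3 (log2 change 0.67), Eno2 and Gm8719 were higher in the clone, and Cops7a, Iffo1, Apobec1, Phc1 and Gm44215 lower. At an unadjusted p under 0.05 there were 0 to 4 members per comparison in total counts, where 48 to 1006 of 16253 genes passed, and 0 to 4 in the ratio, where 209 to 697 of 10795 passed. The exception was the ratio of i12 clone 10, with 11 of 70 members (15.7%) and 570 of 10795 genes (5.28%).

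The d3 pattern was present in the d3 parental line and in both clones. The summed 129S1 share was 64.3% and 66.1% in the parental libraries, 64.3% and 64.6% in clone 12, and 64.1% and 64.5% in clone 21. The median member change against the parental line was 0.02 (SD 0.09 over 2 clone libraries) in total counts and 0.00 (SD 0.01) in the ratio for clone 12. For clone 21 these were -0.04 (SD 0.12) and 0.02 (SD 0.04). The smallest p-values for the ratio were those of Tpi1 in clone 12 (log2 change 0.67, SE 0.17, edgeR adjusted p = 0.496) and of Nanog in clone 21 (-0.41, SE 0.17, edgeR adjusted p = 0.575), and neither passed. The parental replicates differed here: without d3 parental replicate 1, 4 members were called in total counts and 3 in the ratio in clone 12, and 1 and 3 in clone 21. All genes were called more often in that fit too, 4.74% in total counts and 1.44% in the ratio in clone 12, and 3.63% and 5.12% in clone 21. The members were Kdm5a, Tead4, Usp5, Gm44215, Nanog, Tpi1, Zfp384 and M6pr. In that fit the remaining parental library is assumed to vary like the other groups. In simulated counts for d3 clone 12, 2.5% of 2-fold and 90.5% of 4-fold changes were recovered in total counts, and 66.5% of 2-fold changes in the ratio.

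In i12 clone 10 the members' ratio was higher than in the i12 parental line by a median of 0.25 (SD 0.03, n = 2), where the all-gene median was 0.00. CAST counts differed by -0.19 and 129S1 counts by 0.02. Ncapd2 had the smallest p, with a log2 ratio change of 0.37 (SE 0.11, edgeR adjusted p = 0.662), and it was not called. Slc2a3, at 0.33 (SE 0.12, edgeR adjusted p = 0.748), Phb2 and Phc1 were among the 11 members under 0.05 unadjusted. The parental line was the one that stood apart: its member ratio was -0.20 (SD 0.05, n = 2) against 0.00 (SD 0.02, n = 2) in the clone, relative to the mean of the 18 libraries outside d3. This was not particular to the segment, since all 15 windows of chromosome 6 lay between 0.05 and 0.32. Without the i12 parental line, the median d3 difference in the ratio was 0.80. Parted shares were then found in 30 members, a count that leaving out libraries cannot lower.

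**Figure D5:**
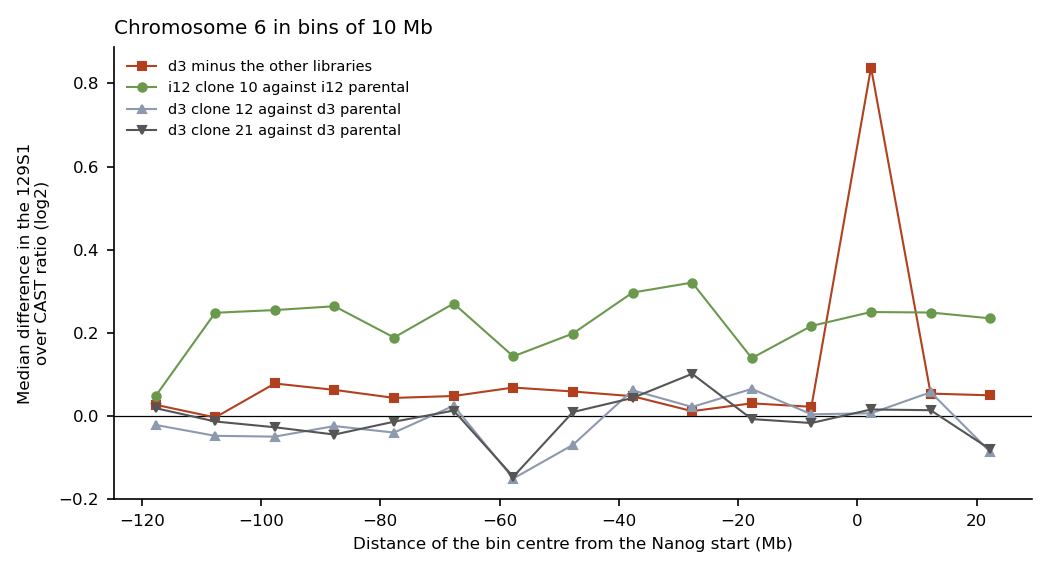
Median log2 difference in the 129S1 to CAST ratio in windows of 10 Mb along chromosome 6, against the distance of the window centre from the Nanog start (Mb). The d3 libraries minus the others (red) reach 0.84 in 1 window, i12 clone 10 against its parental line (green) lies above 0 in all 15, and the d3 clones against their parental line (grey) lie near 0 in the window of the segment.

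No gene at the count minimum in 3 pathway lists from outside the segment had parted shares, where 0.547% of all genes lay above and 0.195% below. Foxh1, of the Nodal and Gdf3 list, was under the minimum and had higher shares in d3, at 0 to 0.245 CPM. For total counts, 1.03% of all genes lay above and 1.36% below. Of 19 genes of the naive pluripotency network, such as Esrrb and Klf4, 17 were at the count minimum, 0 had d3 libraries above the others in total counts and 1 below, and the median difference in total counts was 0.00. Of 13 genes of Nodal and Gdf3 signalling, 12 were at the minimum, with 0 above, 2 below and a median of -0.21. Those below were Lefty1 (-2.59) and Lefty2 (-2.29), and the differences of this list ran from -2.59 to 0.46. Of 15 glycolytic genes, all at the minimum, 0 were above and 1 below, with a median of 0.01. In clone comparisons no gene of these lists was called in total counts by edgeR. In the ratio Tdgf1, the Nodal and Gdf3 co-receptor, was called in d3 clone 12 (3.35, SE 0.22, edgeR adjusted p = 1.2e-08), d3 clone 21 and d6 clone 16, and Klf5, a naive pluripotency factor, in d3 clone 21 against its parental line (-7.30) and against clone 12 (-7.39). Klf5 lies on chromosome 14, whose median ratio changes in these comparisons were -6.52 and -6.54.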

How the data were processed

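The authors deposited raw counts, 1 whole number per gene and library for the 129S1 and for the CAST allele. Per the submitters' processing notes STAR and SAMtools were used with mm10. The counting program, and what became of reads that fit both alleles, are not given in the sources used here, so total counts below are the sum of the 2 deposited columns. Per the labels' protocols libraries were stranded, single-end and from poly(A) RNA. Of 48985 gene identifiers 48301 were identical to GENCODE M21, 48838 matched without version, and the rest held 0.0148% of the counts.

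CPM used TMM library sizes from total counts for both alleles, and log2 values a pseudocount of 0.5 counts. Differences of d3 minus others are differences of mean log2 values. Clones were tested in R 4.3.3 with edgeR 4.0.16 (quasi-likelihood, all 24 libraries, a coefficient per group, filterByExpr, 16253 genes, 12 residual degrees of freedom). The ratio used a coefficient per library and an allele term per group (10795 genes). Benjamini-Hochberg adjustment ran over all genes, with calls under 0.05. DESeq2 1.42.0 and Python 3.11.15 served the alternatives and descriptions. The procedures were tested on simulated data.

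Members and lists were chosen with earlier results of these data known. Named were the members on the 7 role lists, the 5 highest and 5 lowest in total counts and in ratio, and the genes at the ends of the segment and of the count minimum. Others were named after their values were seen. Wilson intervals cover counting error only. Alternatives were other scalings, count minimums, tests, member sets, left-out libraries and a replicate block. The labels do not say what equal replicate numbers share, but differences between replicates correlated over genes with r of 0.29 to 0.65 in all 9 pairs of lines within a recombination (-0.18 to 0.56 in 57 pairs between recombinations), so the blocked value is given where it changes a call.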

Additional observations from a re-analysis of the deposited data

Results flagged for a closer look

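In 13 values checked over the 6 d3 libraries, 4 had 1 library far from the other 5 by Dixon's criterion. Chance alone meets it in about 1 of 20 groups of independent libraries. The 6 libraries come in pairs from 3 related lines, and Nanog counts enter several of the values. The 4 values are therefore not set against that rate. Of the 4 values, 3 concern d3 parental replicate 2. Its summed 129S1 share over the members was 66.1%, where the other d3 libraries had 64.1% to 64.6%. Its Nanog total was 2214 CPM, against a d3 median of 1829 CPM, and its Nanog 129S1 share was 84.9%, with the other 5 at 75.1% to 76.2%. The remaining value is the member median of the ratio in d3 parental replicate 1, 0.70, the lowest of the d3 libraries, whose highest was 0.85.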

How the results depend on the processing

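Of the values recomputed under alternatives for the main results, 383 stayed within their limits and 25 moved. The limit was the SD over libraries for medians and a fixed fold for counts. Counts of parted members cannot fall when libraries are left out. Counts of 0 called members had little room to move, with 2.5% of simulated 2-fold changes recovered in total counts. The tally is therefore no measure of robustness. In i7 clone 12 the replicate block called 8 members in total counts, and 1019 of 16253 genes in all, and a fit on only the libraries of the comparison called 2. The block changed no other member count. Leaving out each replicate gave 0 to 4 called members in total counts and 0 to 3 in the ratio for d3 clone 12, and 0 to 1 and 0 to 3 for d3 clone 21, with every call from leaving out d3 parental replicate 1. It gave median total changes of -0.15 to 0.087 in d3 clone 12, -0.19 to 0.050 in d3 clone 21, -0.042 to -0.0094 in i7 clone 7 and -0.11 to -0.059 in i12 clone 10, and 2 to 4 members above in CAST counts. The i12 clone 10 median of -0.11 in total counts has an SD of 0.0014, so small shifts count as moved: -0.11 with DESeq2 size factors, -0.14 with library totals, -0.10 with TMM without chromosome 6, -0.094 and -0.056 with minimums of 50 and 1 counts, and -0.12 both for protein-coding members and for members with a 129S1 share of 20% to 80%, sets added after seeing the data. Library totals gave -0.047 in i7 clone 7 and -0.044 in i7 clone 12. With shares of 20% to 80%, 0 members lay above in CAST counts. Summed counts over members gave d3 differences of 0.51 in total, 0.10 on CAST and 0.70 in the ratio. The causes were not tested. Of 420 single-member values under 3 scalings, the sign differed for Hdhd5 and Cd9 in total counts with library totals, and 1 other value, Rimklb, moved. Depth limits members near 10 counts, such as C1rl and Gpr162, whose shares span wide ranges.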

Other observations

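Values outside the segment come from whole chromosomes. In d3 clone 21 the median log2 ratio of 129S1 to CAST over chromosome 14 differed from the d3 parental line by -6.52 and from d3 clone 12 by -6.54, with CAST counts higher by 0.98 and 0.94. In i7 clone 12 the ratio over chromosome 19 differed from the i7 parental line by -0.91, CAST counts by 0.88 and total counts by 0.50. Against its parental line, i12 clone 10 had a median log2 ratio of 129S1 to CAST of 0.23 over the genes of chromosome 6, 0.18 on chromosome 3, -0.27 on chromosome 8 and -0.21 on chromosome 14. On the other chromosomes it lay between -0.05 and 0.05. The CAST counts of chromosomes 3 and 6 differed by -0.20 and -0.22, and the 129S1 counts of chromosomes 8 and 14 by -0.27 and -0.20. Total counts of these 4 chromosomes differed by -0.10 to -0.12. No test was made of these values. In the i12 parental line the summed 129S1 share of the members was 51.6% and 48.8%, and the fitted ratio changes of single members in i12 clone 10 ran from -1.72 to 2.08.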
